A study of Arabidopsis thaliana with 6 samples.

Results

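CONSTANS (CO) and its CONSTANS-like (COL) relatives are plant transcription regulators, and 10 of them were followed here by gene identifier: CO, COL1, COL2, COL3, COL4, COL5, COL6, COL7, COL9 and COL10, out of 32833 genes counted. Their transcripts were measured with RNA-seq in whole seedlings of Arabidopsis thaliana of 2 genotypes, wild-type Col-0 and gi-2, a mutant allele of GIGANTEA (GI), with 3 libraries of each. All seedlings were 7 d old, had grown on 0.5x MS medium under 80 µmol m-2 s-1 of light at 22 °C in short days with 8 h of light and 16 h of darkness, and were frozen at ZT0, when the lights came on. Each library was made from a pool of 40 to 60 seedlings, so 1 time of day and a mixture of all seedling tissues were sampled, and the labels do not describe the lesion of gi-2.

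CO carries B-box zinc fingers near one end and a CCT domain near the other, and the family is defined by this pair of features. In Arabidopsis, CO protein that accumulates in the light at the end of long days switches on the florigen gene FT in phloem companion cells of the leaf and so promotes flowering. The clock sets the daily rhythm of CO transcription. GI works with the F-box protein FKF1 to remove the CYCLING DOF FACTORS (CDFs) that repress CO, while LHY and CCA1 are dawn-phased transcription factors of the clock. The comparison shows how the RNA of each family member differed at dawn of a short day between plants with and without the mutation in GI.

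Libraries held 18739317 to 23617717 counts assigned to genes, and levels are given as CPM (counts scaled by the TMM method to a common library size), as mean ± SD over 3 libraries. A floor of 3 counts was worth 0.126 to 0.166 CPM. GI transcript itself gave 183, 210 and 139 counts in gi-2 and 68, 59 and 53 in Col-0. The log2 fold change, always given as gi-2 over Col-0 and called log2 change below, was 1.37 with a standard error (SE) of 0.21 (adjusted p = 0.000168 by the edgeR quasi-likelihood test). Since the labels do not place the mutation, the level of GI RNA does not check the genotype. The second principal component, 17.5% of the variance, spread the Col-0 libraries to both sides of gi-2. Col-0 replicate 1 stood at 41.1, Col-0 replicates 2 and 3 at -23.0 and -29.0, and the gi-2 libraries at 2.08 to 5.28. Without Col-0 replicate 1, the farthest out, 3 members were still called higher and 3 lower. Of 19699 genes with enough counts to test, 6413 were called at an adjusted p under 0.05.

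Of the 10 members, 3 were higher in gi-2 (COL4, COL5 and COL10), 3 were lower (COL2, COL6 and COL7), 3 did not pass the test (CO, COL3 and COL9), and COL1 had no counts and was not tested. The 6 called among the 9 tested compare with a background of 32.6% of all genes tested called in either direction, 16.3% called higher and 16.2% called lower. In 6 of the 9 the gi-2 and Col-0 libraries occupied separate ranges, which was so for 45.3% of all genes tested. The median log2 change of the 9 was -0.14, against 0.00 for all genes tested. COL2 had the lowest of the log2 changes, -1.90, and COL10 the highest among called members, 1.27. Among the 6413 called genes the median absolute log2 change was 0.56, a size exceeded by COL2, COL7, COL10 and, narrowly, COL5, but not by COL4 or COL6.

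**Figure D1:**
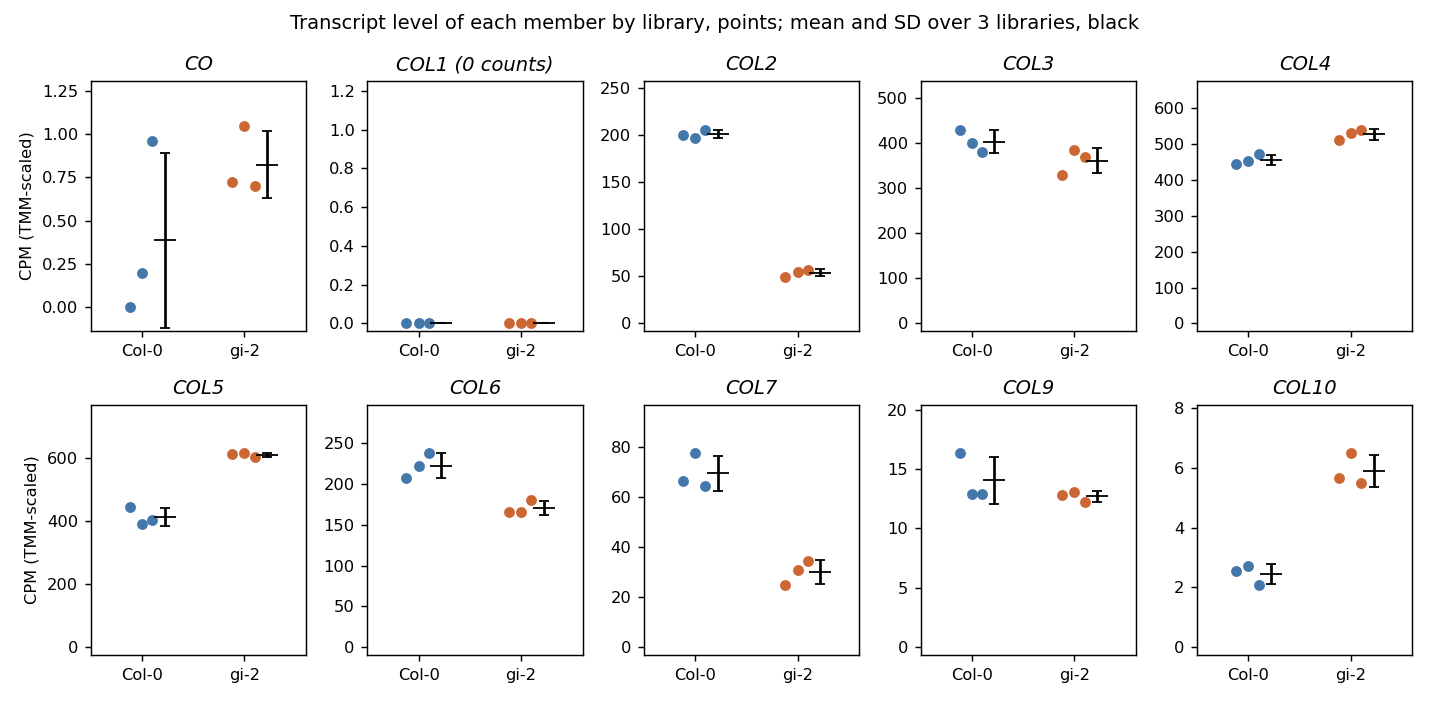
TMM-scaled CPM (vertical axes, each with its own scale) of the 10 members in each of the 3 Col-0 and 3 gi-2 libraries (points), with the mean and SD in black. COL2, COL6 and COL7 were lower in every gi-2 library than in any Col-0 library, COL4, COL5 and COL10 were higher, CO, COL3 and COL9 overlapped, and COL1 was at 0 throughout.

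The upstream sequences of 4 members are shown because they stand for the main contrasts described below: COL2 and COL7 had the largest falls, and COL10 rose while COL9, its closest relative in protein sequence, did not pass the test. Each is the 300 bases before the annotated transcript start, read 5′ to 3′ on the strand of the gene from the RefSeq TAIR10.1 genome, and capitals mark matches to the evening element AAAATATCT on either strand, a motif known from clock-controlled genes with evening expression. The COL2 window is chr3:489468-489767 on the minus strand, COL7 chr1:27778684-27778983 on the plus strand, COL10 chr5:19563833-19564132 on the minus strand and COL9 chr3:2441265-2441564 on the plus strand.
COL2: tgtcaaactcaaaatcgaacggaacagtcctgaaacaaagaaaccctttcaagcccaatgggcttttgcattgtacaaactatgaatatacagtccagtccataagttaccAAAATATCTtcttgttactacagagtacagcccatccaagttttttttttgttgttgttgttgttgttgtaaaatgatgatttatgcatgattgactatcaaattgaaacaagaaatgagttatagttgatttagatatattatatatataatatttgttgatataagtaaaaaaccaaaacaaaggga
COL7: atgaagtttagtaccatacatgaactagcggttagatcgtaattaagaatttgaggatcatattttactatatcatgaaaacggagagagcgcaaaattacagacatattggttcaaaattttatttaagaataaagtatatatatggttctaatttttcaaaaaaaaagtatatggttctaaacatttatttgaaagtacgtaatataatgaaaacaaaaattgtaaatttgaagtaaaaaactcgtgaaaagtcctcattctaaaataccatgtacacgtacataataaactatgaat
COL10: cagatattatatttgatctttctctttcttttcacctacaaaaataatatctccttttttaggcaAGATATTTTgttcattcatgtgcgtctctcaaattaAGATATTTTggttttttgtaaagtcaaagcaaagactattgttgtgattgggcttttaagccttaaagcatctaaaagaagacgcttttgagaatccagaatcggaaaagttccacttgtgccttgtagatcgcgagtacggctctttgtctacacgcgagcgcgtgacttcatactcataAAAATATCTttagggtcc
COL9: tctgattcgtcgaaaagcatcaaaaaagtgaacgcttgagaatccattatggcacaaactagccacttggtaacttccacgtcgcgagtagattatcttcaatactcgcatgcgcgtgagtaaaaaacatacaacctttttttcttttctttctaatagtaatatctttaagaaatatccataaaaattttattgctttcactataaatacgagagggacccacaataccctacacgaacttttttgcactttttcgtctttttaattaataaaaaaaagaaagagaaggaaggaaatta

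COL10 held 3 evening elements, at 235 to 227, 199 to 191 and 18 to 10 bases before the start, and COL2 held 1, at 189 to 181 bases before it. The element occurred in 765 of 27443 upstream windows of protein-coding genes of the same length (2.79%), 27 windows held exactly 2, and 3 held 3 or more. A G-box, CACGTG, occurred in the COL4 window at 169 to 164 bases before the start and in 7.09% of all windows. The annotated exons of COL4, 1089 bases for 362 residues, hold no untranslated bases, so its start here is that of the coding sequence. The CCA1-binding site, searched for only in the form AAAAATCT and found in 7.94% of windows, had no match in the windows of the 10 members. Neither had TGTGNNATG, found in 4.03% and the only form of the CO-responsive element searched for. All motifs were searched on both strands, and none of the 4 contains another. Of 553 tested genes with an evening element in this window, 157 were higher in gi-2 (28.4%) and 73 lower (13.2%), beside 16.3% and 16.2% of all genes tested. COL10 was among the higher of these genes, as was COL15, a family gene outside the 10 members, and COL2 was among the lower. CO, COL1, COL3, COL5, COL6, COL7 and COL9 have no match to any of the 4 motifs. The part of the element in these changes was not tested. A match describes letters in the window and says nothing of binding.

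CO, the founding member and the activator of FT, was close to the limit of detection at this hour. The gene (AT5G15840, chromosome 5, 5170162 to 5173085, minus strand, TAIR10) gave 16, 25 and 14 counts in gi-2 and 0, 4 and 19 in Col-0, or 0.726, 1.05 and 0.701 against 0, 0.196 and 0.960 CPM. The range of Col-0 enclosed 2 of the 3 gi-2 libraries, so the genotypes overlapped. Mean levels were 0.824 ± 0.193 (gi-2) and 0.386 ± 0.507 CPM (Col-0), with a log2 change of 1.07 (SE 0.78; 95% interval -0.59 to 2.74; edgeR adjusted p = 0.327). That interval includes no difference as well as a rise larger than that of any called member. Summed over libraries, 55 and 23 counts give a ratio of 2.11 with a 95% interval of 1.28 to 3.60, which covers counting error and not the spread between libraries. The value depended on Col-0 replicate 3: without it the log2 change was 2.94 (edgeR adjusted p = 0.0303), and without Col-0 replicate 1, the library with 0 counts, it was 0.51 (edgeR adjusted p = 0.586). Of the 2924 exon bases of CO, 738 lie opposite exons of AT5G15843 and 5 opposite AT5G15845. AT5G15843 had 0 counts in all libraries, but its exons lie wholly within those of CO, so this does not show that it was silent. Reads of CO from the shared bases may likewise have gone uncounted. The labels describe the libraries as non-directional, so reads of a gene and of its antisense partner cannot be told apart.

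COL1 (AT5G15850, chromosome 5, 5176091 to 5177897, minus strand), the neighbour of CO 3005 bases further up the chromosome, had 0 counts in all 6 libraries. All 1698 of its exon bases lie within exons of AT5G15845, an antisense long noncoding RNA gene on the plus strand (5173081 to 5178291), so without strand no read could be assigned to COL1 alone by its position. AT5G15845 itself gave 15, 8 and 8 counts in gi-2 and 0, 7 and 8 in Col-0, too few to test, and its 0 fell in the same Col-0 library as that of CO. The same was seen across the table: of 349 protein-coding genes with all exon bases shared with other genes, 348 had 0 counts in all libraries (99.7%). The share with 0 counts was 49.0% (350 of 715) among genes sharing at least 50% but not all of their exon bases. It was 5.56% (357 of 6419) among those sharing fewer, and 18.9% (3780 of 19961) among those sharing none. Whether COL1 RNA was present cannot be read from these counts.

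**Figure D2:**
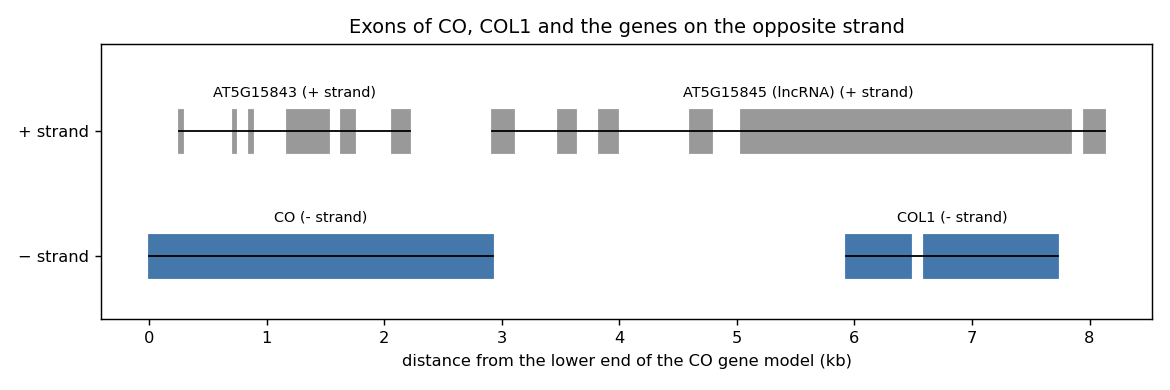
Exons (boxes) of CO and COL1 on the minus strand (blue) and of AT5G15843 and AT5G15845 on the plus strand (grey), merged over all transcripts of each gene, by distance in kb from the lower end of CO. The exons of COL1 lie wholly within those of AT5G15845, while CO shares 743 of 2924 exon bases with the 2 plus-strand genes.

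**Figure D3:**
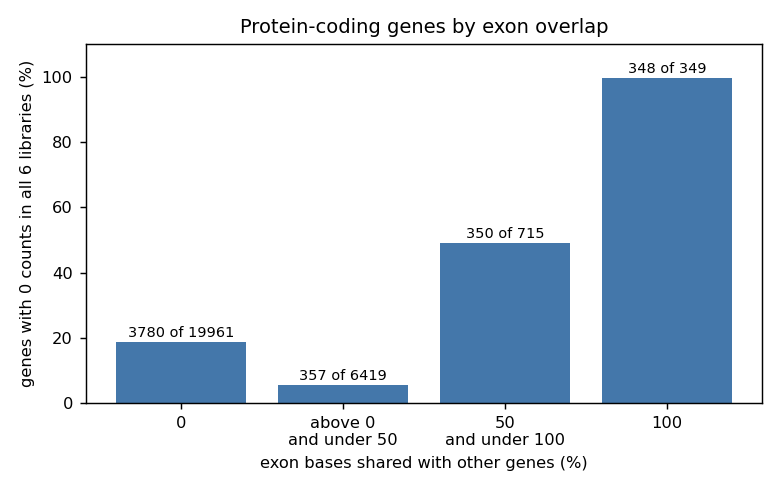
Percentage of protein-coding genes with 0 counts in all 6 libraries (vertical axis), grouped by the percentage of their exon bases shared with other annotated genes (horizontal axis), with the numbers of genes above the bars. The group to which COL1 belongs stands at 99.7%, against 18.9% of genes that share no exon base.

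COL2, the member with the highest percentage of aligned residues identical to those of CO, had the largest change of the members. At AT3G02380 (chromosome 3, 487069 to 489467, minus strand) the gi-2 libraries stood at 49.8, 54.3 and 57.2 CPM and the Col-0 libraries at 200.1, 196.9 and 205.8 CPM. Every gi-2 library lay far below every Col-0 library, with little scatter within either genotype. COL2 fell from 200.9 ± 4.55 to 53.7 ± 3.75 CPM, a log2 change of -1.90 (edgeR adjusted p = 5.97e-10, SE 0.08), or 3.74-fold lower in gi-2. Of its 2256 exon bases, 212 are shared with AT3G02370 on the opposite strand and 506 with AT3G02390, which had 0 counts. Since reads from shared bases may go uncounted, that 0 does not show that AT3G02390 was silent. AT3G02370 was higher in gi-2, at 8.45 ± 0.960 against 2.35 ± 0.895 CPM (edgeR adjusted p = 8.95e-05), a change opposite to that of COL2 and small beside its level.

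COL3, COL4 and COL5, like CO with 2 B-boxes, were the most abundant members per length, and COL4 and COL5 were called higher while COL3 did not pass the test. COL3 (AT2G24790, chromosome 2, 10566836 to 10568145) encodes a nuclear protein that promotes responses to light in seedlings. It stood at 329.5, 384.2 and 368.8 CPM in gi-2 and 429.8, 399.6 and 379.6 CPM in Col-0, where the highest gi-2 library exceeded the lowest Col-0 library. Its log2 change of -0.16 (SE 0.08; 95% interval -0.33 to 0.01) did not pass the test (edgeR adjusted p = 0.154).

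COL4 (AT5G24930, chromosome 5, 8589457 to 8590949) encodes a repressor of flowering in Arabidopsis. Its libraries held 510.6, 532.5 and 540.9 CPM in gi-2 and 443.9, 454.4 and 472.1 CPM in Col-0, without overlap. The rise was small, with means of 528.0 ± 15.6 and 456.8 ± 14.3 CPM and a log2 change of 0.21 (SE 0.07; 95% interval 0.06 to 0.36; edgeR adjusted p = 0.0350). The call was lost when gi-2 replicate 1, 2 or 3 was left out (edgeR adjusted p = 0.0574, 0.128 and 0.151), when Col-0 replicate 2 was left out (0.121), and when gi-2 replicate 2 and Col-0 replicate 1 were left out together (0.0726). The log2 change lay between 0.18 and 0.23 in all 13 alternatives.

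COL5 (AT5G57660, chromosome 5, 23355337 to 23356989), whose overexpression is known to hasten flowering in short days, rose more clearly. Its libraries held 611.4, 614.1 and 601.6 CPM in gi-2 and 442.8, 389.3 and 402.8 CPM in Col-0. The lowest gi-2 library was well above the highest Col-0 library, and the gi-2 libraries differed from each other by little. Means were 609.0 ± 6.54 and 411.6 ± 27.8 CPM, 1.48-fold higher in gi-2, with a log2 change of 0.57 (edgeR adjusted p = 4.67e-05, SE 0.07). No other annotated gene shares exon bases with COL3, COL4 or COL5.

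COL6 and COL7 belong to the branch of the family with a single B-box, and both were lower in gi-2. COL6 (AT1G68520, chromosome 1, 25708175 to 25710989, minus strand) held 165.7, 165.7 and 180.8 CPM in gi-2 and 207.0, 221.9 and 237.6 CPM in Col-0, without overlap. The fall was from 222.2 ± 15.3 to 170.7 ± 8.71 CPM, a log2 change of -0.38 (edgeR adjusted p = 0.00164, SE 0.08). Of its 2617 exon bases 329 are shared with AT1G68510, which had 1 count in all.

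COL7 (AT1G73870, chromosome 1, 27778984 to 27780809), a regulator of branching and of the response to shade in Arabidopsis, stood at 25.0, 30.7 and 34.3 CPM in gi-2. In Col-0 it stood at 66.6, 77.7 and 64.6 CPM. The genotypes were widely separated, although the gi-2 libraries scattered more, in proportion to their mean, than those of most members. COL7 fell from 69.6 ± 7.03 to 30.01 ± 4.71 CPM, a log2 change of -1.22 (edgeR adjusted p = 1.99e-06, SE 0.11), or 2.32-fold lower, and shares no exon base with another gene.

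COL9 and COL10 are the most similar pair of the 10 proteins, and of the pair COL10 rose while COL9 did not pass the test. COL9 (AT3G07650, chromosome 3, 2441565 to 2444532), known to delay flowering in Arabidopsis by lowering CO and FT expression, held 12.8, 13.1 and 12.2 CPM in gi-2 and 16.3, 12.9 and 12.9 CPM in Col-0. Apart from Col-0 replicate 1 all libraries lay close together. Its log2 change was -0.14 (SE 0.13; 95% interval -0.43 to 0.14; edgeR adjusted p = 0.454).

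COL10 (AT5G48250, chromosome 5, 19561319 to 19563832, minus strand) gave 125, 155 and 110 counts in gi-2 and 46, 55 and 41 in Col-0, or 5.67, 6.49 and 5.50 against 2.55, 2.70 and 2.07 CPM. All 3 gi-2 libraries exceeded all 3 Col-0 libraries by more than the spread within either genotype. COL10 rose from 2.44 ± 0.328 to 5.89 ± 0.527 CPM, 2.41-fold, with a log2 change of 1.27 (edgeR adjusted p = 0.000576, SE 0.22). It shares 56 of 1814 exon bases with AT5G48240, which did not pass the test (log2 change -0.16; edgeR adjusted p = 0.471). The ratio of COL10 to COL9, per kb of exon length, was 0.525 ± 0.0335 in gi-2 and 0.199 ± 0.0335 in Col-0 (SD, n = 3 each). This ratio and the 3 given below were chosen with the members' values known, so they are descriptions with no test.

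Similarity between members bears on how far their reads can be told apart. Translated from the RefSeq annotation, COL9 and COL10 shared 77.0% of aligned residues (271 of 352), COL1 and COL2 71.9%, CO and COL2 69.0%, CO and COL1 67.7%, and COL3 and COL4 66.0%. Over all 45 pairs identity ran from 31.6% to 77.0% with a median of 39.6%. In exon sequence, by contrast, the longest exact stretch that any pair had in common was 35 bases, and the median was 13 bases, far shorter than the inserts of 250 to 300 bp. The stretches of 3 close pairs are shown because they are the longest exact matches between these paralogs, and all lie in the coding sequence of both genes.
COL3 and COL4: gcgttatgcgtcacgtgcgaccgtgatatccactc
COL1 and COL2: gtcctgagatacagagagaagaagaaga
COL9 and COL10: cttgagaactatgaagaactctttggt

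Scaled to annotated exon length, the members spanned more than 3 orders of magnitude, a span that depends on the gene models. The merged exons of CO form a single block of 2924 bases over the whole gene. Those of COL4, 1089 bases for 362 residues, hold no untranslated bases. Levels per kb may thus be understated for CO and overstated for COL4. In gi-2 the order by CPM per kb was COL4 (484.8), COL5 (389.4), COL3 (279.1), COL6 (65.2), COL2 (23.8), COL7 (17.7), COL9 (6.18), COL10 (3.25) and CO (0.282), and no neighbours in that order overlapped. In Col-0 it was COL4 (419.5), COL3 (311.7), COL5 (263.2), COL2 (89.1), COL6 (84.9), COL7 (41.1), COL9 (6.84), COL10 (1.35) and CO (0.132), where COL2 and COL6 overlapped. COL5 thus stood above COL3 in gi-2 and below it in Col-0. COL2 stood below COL6 in gi-2, while in Col-0 their ranges overlapped on this scale. Reads from exon bases shared with other genes may go uncounted. Such bases were 718 of 2256 for COL2 and 329 of 2617 for COL6. Their levels per kb may thus be understated, and the overlap in Col-0 is given for this scale only.

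**Figure D4:**
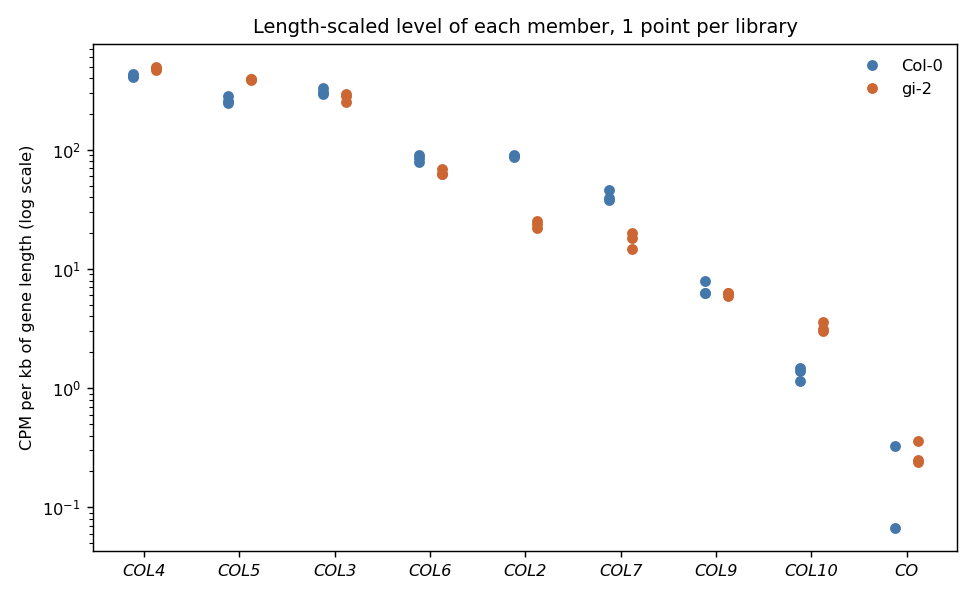
CPM per kb of exon length (vertical axis, log scale) of the 9 members with counts in each Col-0 (blue) and gi-2 (orange) library, ordered by their mean in gi-2. COL3, COL4 and COL5 lie above all others in both genotypes, and the 0 of CO in Col-0 replicate 1 cannot be drawn on this axis.

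The sum over the members overlapped between the genotypes. Over the 10 genes, length-scaled levels were 1224, 1294 and 1291 CPM per kb in gi-2 and 1240, 1201 and 1213 in Col-0. Its make-up did differ: COL5 took 29.8% to 31.9% of the gi-2 sum, against 20.7% to 22.8% in Col-0, and COL2 took 1.80% to 1.96% against 7.16% to 7.53%. The share of COL4 was 37.8% to 38.5% in gi-2, against 32.9% to 35.8% in Col-0, and that of COL3 was 20.8% to 22.95% and 24.2% to 26.8%. The ratio of COL5 to COL2 per kb was 16.4 ± 1.28 in gi-2 and 2.96 ± 0.205 in Col-0. COL4 to COL3 was 1.74 ± 0.0974 against 1.35 ± 0.125, and COL7 to COL6 was 0.271 ± 0.0330 against 0.485 ± 0.0611 (SD, n = 3 each). All lengths here are full exon lengths, shared bases included, so the values of COL2, COL4 and COL6 carry the limits given above.

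The other 7 CONSTANS-like genes were measured in the same libraries: 4 were higher in gi-2, none was lower, COL16 did not pass the test, and COL11 and COL12 had 0 counts. Of all genes tested, 16.3% were called higher and 16.2% lower. COL8 (AT1G49130), of the single B-box branch with COL6 and COL7, rose from 14.2 ± 2.85 to 57.6 ± 4.34 CPM (log2 change 2.03; edgeR adjusted p = 4.25e-08, SE 0.13), opposite in direction to both. COL16, the other gene of that branch, stood at 104.5 ± 4.16 and 107.1 ± 7.92 CPM (log2 change -0.04, 95% interval -0.20 to 0.13; edgeR adjusted p = 0.763). COL15 rose from 5.83 ± 1.21 to 16.7 ± 1.22 CPM (log2 change 1.51; edgeR adjusted p = 7.98e-06, SE 0.16), and its upstream window held 2 evening elements, at 276 to 268 and 255 to 247 bases before the start.

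COL13 and COL14 had smaller rises, with log2 changes of 0.45 (edgeR adjusted p = 0.0208, SE 0.14) and 0.39 (edgeR adjusted p = 0.0236, SE 0.12). The upstream window of COL13 held the CCA1-binding site AAAAATCT at 224 to 217 and 139 to 132 bases before the start. For COL13 the call was lost on leaving out gi-2 replicate 1, 2 or 3 (0.0506, 0.0755 and 0.0581 as the edgeR adjusted p) or Col-0 replicate 2, where the log2 change was 0.29 (0.105). For COL14 it was lost without gi-2 replicate 1 or 3 (0.0981 and 0.0761) or Col-0 replicate 2 or 3 (0.0670 and 0.0542), with log2 changes between 0.35 and 0.39. By branch, the group of CO and COL1 to COL5 had 2 higher, 1 lower, 2 not called and 1 untested. The group of COL6, COL7, COL8 and COL16 had 1 higher, 2 lower and 1 not called. The group of COL9 to COL15 had 4 higher, 0 lower, 1 not called and 2 untested. COL13 and COL14, whose calls were lost in the omissions above, are among these 4. Shares over all genes tested were 16.3% higher and 16.2% lower.

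**Figure D5:**
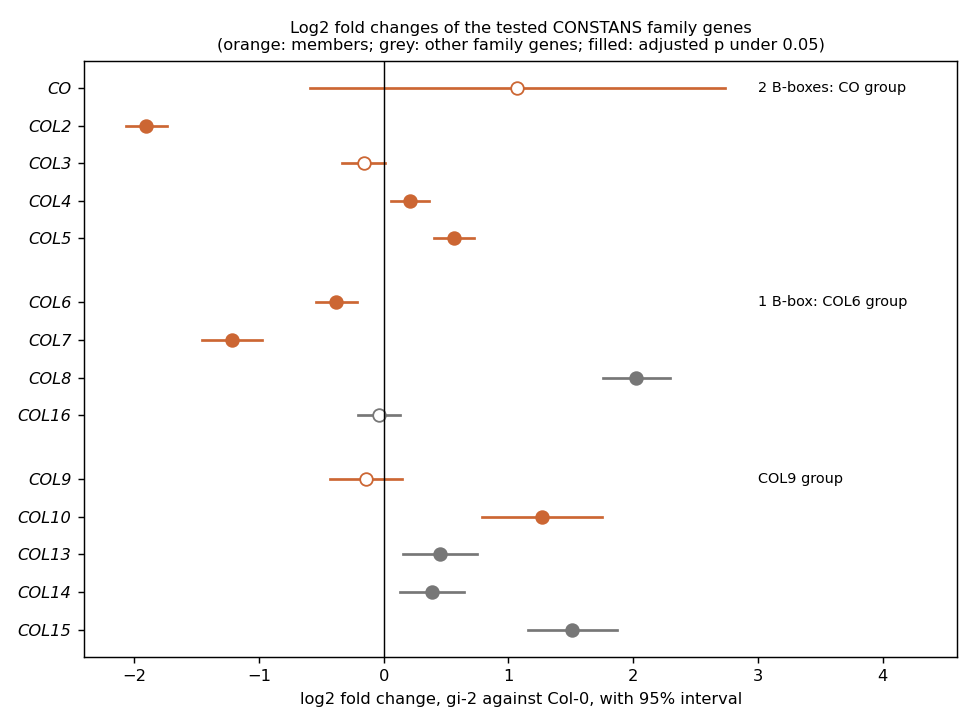
Log2 change of gi-2 against Col-0 (horizontal axis, lines give the 95% interval) for the 14 family genes tested, grouped by branch, with members in orange, other family genes in grey, and filled points for an edgeR adjusted p under 0.05. COL2 and COL7 lie farthest to the left and COL8, COL15 and COL10 farthest to the right among called genes.

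Genes known to act on CO transcription were measured beside it. Of 14 such genes 3 were higher, 5 lower and 6 not called, beside 32.6% of all genes tested called in either direction. LHY, at 235.1 ± 1.68 against 826.6 ± 14.3 CPM (log2 change -1.81; edgeR adjusted p = 4.82e-10), and CCA1 (-1.25; 3.84e-08) were lower, as was CDF1 (-1.10; 2.08e-06), a direct repressor of CO. FKF1 gave 26, 23 and 14 counts in gi-2 and 0 in all Col-0 libraries, at least 6.11-fold higher when the floor of 3 counts per library is taken for Col-0. Lower CDF1 RNA and higher FKF1 and GI RNA were thus measured in the libraries where CO itself did not pass the test.

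Of 15 genes that act on CO protein stability or activity 7 were higher and 4 lower, beside 32.6% of all genes tested called. The phytochrome gene PHYA (log2 change 1.19; edgeR adjusted p = 4.35e-08) and the clock regulator gene PRR7 (1.94; 4.65e-08) had the smallest p-values among those that rose. SPA3 (-0.69; 1.10e-05) and SPA4 (-0.84; 6.18e-05), which encode partners of the COP1 ubiquitin ligase that degrades CO in the dark, fell. Transcript levels do not measure CO protein.

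Among 10 genes for proteins that bind CO 1 rose and 2 fell, near the 32.6% of all genes tested that were called. TOE1, a repressor of FT, had a log2 change of 0.33 (edgeR adjusted p = 0.00555). NF-YB2, a subunit of the DNA-binding complex that CO joins, fell by 0.68 on the log2 scale (edgeR adjusted p = 5.51e-05), with 448 of its 1046 exon bases shared with another gene. BBX31, which encodes a small B-box protein that binds CO, gave 3, 11 and 8 counts in gi-2 and 31, 41 and 27 in Col-0 (log2 change -2.33; edgeR adjusted p = 0.00276).

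Of the targets of CO, FT had 0 counts in all 6 libraries and TSF, its close relative, 4 counts in gi-2 replicate 1 and 0 elsewhere, so a difference in either could not be tested at this depth. SOC1, which acts downstream of FT, gave 92, 126 and 98 counts in gi-2 and 42, 59 and 63 in Col-0, without overlap. Its levels were 4.78 ± 0.561 and 2.80 ± 0.436 CPM (log2 change 0.77; edgeR adjusted p = 0.0224, SE 0.24). With fewer libraries the call was lost while the log2 change stayed similar: it was 0.69 without gi-2 replicate 2 (edgeR adjusted p = 0.0919), 0.74 with gi-2 replicate 3 left out (0.0694) and 0.78 with Col-0 replicate 2 left out (0.0559). With gi-2 replicate 2 and Col-0 replicate 1 both left out it was 0.58 (edgeR adjusted p = 0.133).

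The seedlings of the genotypes also differed in markers of tissue. Of 4 genes of green tissue 3 were lower in gi-2, with a summed level of 15690 to 18020 CPM against 22630 to 24670 CPM in Col-0. Without RBCS1A, the most abundant of them, it was 7793 to 8648 against 9944 to 10720 CPM. Of 6 root genes 1 was higher and 2 lower. Their sum (2401 to 2569 against 3634 to 4079 CPM) was mostly PYK10, which fell from 3705 ± 240.1 to 2249 ± 73.5 CPM, and the other 5 summed to 219.6 to 242.4 against 201.5 to 224.3 CPM, ranges that overlapped. Of 4 genes of the phloem, where CO acts, 1 was higher and 1 lower (404.1 to 424.6 against 357.8 to 395.5 CPM), and without AHA3, the most abundant, the sums overlapped (186.4 to 198.6 against 177.8 to 192.2 CPM). Of 4 seed storage genes the 3 tested were higher in gi-2 (16.7 to 347.9 against 0.720 to 9.86 CPM, the highest in gi-2 replicate 2). Without that library together with Col-0 replicate 1, COL2, COL5, COL6, COL7 and COL10 kept their calls. That omission does not remove the seed difference: in the libraries kept, CRU3 gave 50 and 234 counts in gi-2 and 0 and 5 in Col-0. The floral gene AP1 had 0 counts in all libraries and LFY at most 9 in any. In bulk samples fewer cells of a type and less RNA per cell cannot be told apart, and the part of these marker differences in the changes of CO family genes was not tested.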

How the data were processed

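RNA was sequenced from 3 pools of seedlings per genotype. The deposited table holds unscaled counts, whole numbers of reads for each gene, together with a gene length column of another unit, per the file headers. STAR 2.5.5, HTSeq 0.6.1, DESeq2 and TAIR10 are named in the submitters' processing notes, and how strand and multi-mapped reads were handled is not given in the sources used. The labels call the replicates biological but do not say whether they were grown on separate days, and the p-values thus reflect how much these pools varied. Replicates varied beyond sampling noise (chi-square per degree of freedom 4.55 to 13.8).

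In 24 rows shifted annotation cells were read around, with counts intact. Genes with enough counts (filterByExpr, minimum count 10, minimum total 15) were tested with edgeR 4.0.16 in R 4.3.3 by TMM scaling and a quasi-likelihood F test, fitting genotype alone. Benjamini-Hochberg adjusted p-values were taken over all genes tested and called under 0.05. The procedure was tested on simulated data. DESeq2 1.42.0, other scalings and filters, a replicate block and omission of libraries were the alternatives. Intervals are at 95%, and those on counts cover counting error only.

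Positions are those deposited. Start and end matched the RefSeq TAIR10.1 annotation for 32508 of 32524 nuclear genes, and exons, proteins and upstream windows were taken from that release. The members, gene lists and tests were chosen with earlier results of these data known. All family genes were named, with GI, LHY, CCA1, CDF1, FKF1, FT, TSF and SOC1 and the up to 2 higher and 2 lower genes with the smallest adjusted p in each of the lists on CO transcription, CO protein and partners of CO. Genes that share exon bases with a member, and the length-scaled ratios, were named after values were seen.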

Additional observations from a re-analysis of the deposited data

How the results depend on the processing

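Over 13 alternatives, the 9 tested members gave 116 log2 fold changes, of which 110 kept their direction and side of the threshold, 5 (all COL4) lost the call, 1 (CO) gained it and 0 changed sign. The members called lower numbered 3 in every alternative, and those called higher 2 to 4. COL2 ranged from -1.96 to -1.86, COL7 from -1.33 to -1.11, COL6 from -0.44 to -0.33, COL5 from 0.52 to 0.61 and COL10 from 1.16 to 1.34. CO ranged from 0.31 to 2.94, was left out by the filter at a mean CPM of 1, and its low counts are the limit of depth here. Of 65 values for other family genes 8 lost the call (COL13 and COL14), and of 168 for pathway genes 4 (SOC1). Genes called numbered 4910 to 6687, and the median log2 fold change of all genes lay between -0.01 and 0.01 in every alternative. With replicate number as a block, 6161 genes and 3 members in each direction were called. The deviations of same-numbered libraries had correlations of 0.00207, 0.0145 and 0.0156, too low to treat the numbers as pairs, although 4 of 6 libraries correlated best with their own number. The labels do not say what a number marks.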
